A study of Mus musculus with 2 samples.

Results

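Endothelial identity and fenestrated vessel genes are a list of 40 genes, chosen by name, that mark the cells lining blood and lymphatic vessels. The gene identifiers of the deposited tables were matched to the 40 symbols, and 40 of 40 were found among 43346 Ensembl genes. The RNA came from adrenals of B6NCrl mice on postnatal day 0, and total RNA-seq gave 1 library for each of 2 pups. The 2 adrenals of a pup were pooled and 10 ng of their RNA went into its library. Pregnant number 1 and a shared donor entry stand in the labels of both pups, and sex was not collected. No treatment, mutation or second condition is recorded, so both libraries form 1 group. The comparison made is therefore that of the level of each gene and of how far pup 2 lies from pup 1.

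Endothelial cells line every vessel, are held together by their own junction proteins and keep their identity through transcription factors of the ETS family. The cortex of the adrenal gland is supplied by thin sinusoidal capillaries whose cells are pierced by fenestrae, small pores closed by a diaphragm, through which hormones reach the blood. Arteries, veins and lymphatic vessels of the capsule and medulla add endothelial cells with marker genes of their own. The 40 genes were described in 6 classes, namely pan-endothelial genes, pan-endothelial transcription factors, fenestrated and capillary genes, arterial genes, sinusoidal genes and lymphatic genes.

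Depth was 40800539 estimated counts for pup 2, against 41510071 for pup 1. The labelled tissue was checked by 8 steroidogenic genes of the adrenal cortex, which summed to 18999 TPM (the share of transcripts in a library, corrected for transcript length) in pup 2 and 7277 TPM in pup 1. With 1 library per pup there is no test between pups, and the values carry a mean and SD over 2 libraries and, for ratios, an exact binomial 95% interval. That interval covers counting error only, because each pup is 1 library. PCR copies of a molecule were not told apart by molecular identifiers, so it can be too narrow even for counting error. A ratio is the log2 of pup 2 over pup 1 in counts scaled by TMM (trimmed mean of M values), which sets the bulk of genes near 0. Levels are given in TPM, and every log2 ratio is of scaled counts, so that it need not equal the ratio of the TPM values beside it; over all genes the ratio of TPM values lay 0.39 higher on the log2 scale. In RNA of a whole gland, fewer cells of a type and less RNA per cell cannot be told apart.

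The vessel genes were all detected, with between 55 and 7106 estimated counts, and all 40 passed the filter of a mean count of at least 10. At least 1 TPM was reached in both pups by 37 of them, the other 3 being Tal1, Apln and Mmrn1. Their median level was 16.4 TPM in pup 2, against 8.30 TPM in pup 1. Together they made up 1163 TPM in pup 2, against 805 TPM in pup 1, or 0.116% of all transcripts in pup 2 and 0.0805% in pup 1. Beside the other expressed genes they were of ordinary level, since 20 of 40 lay above the median of 12.2 TPM of the 14266 genes at 1 TPM or more in both pups.

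**Figure D1:**
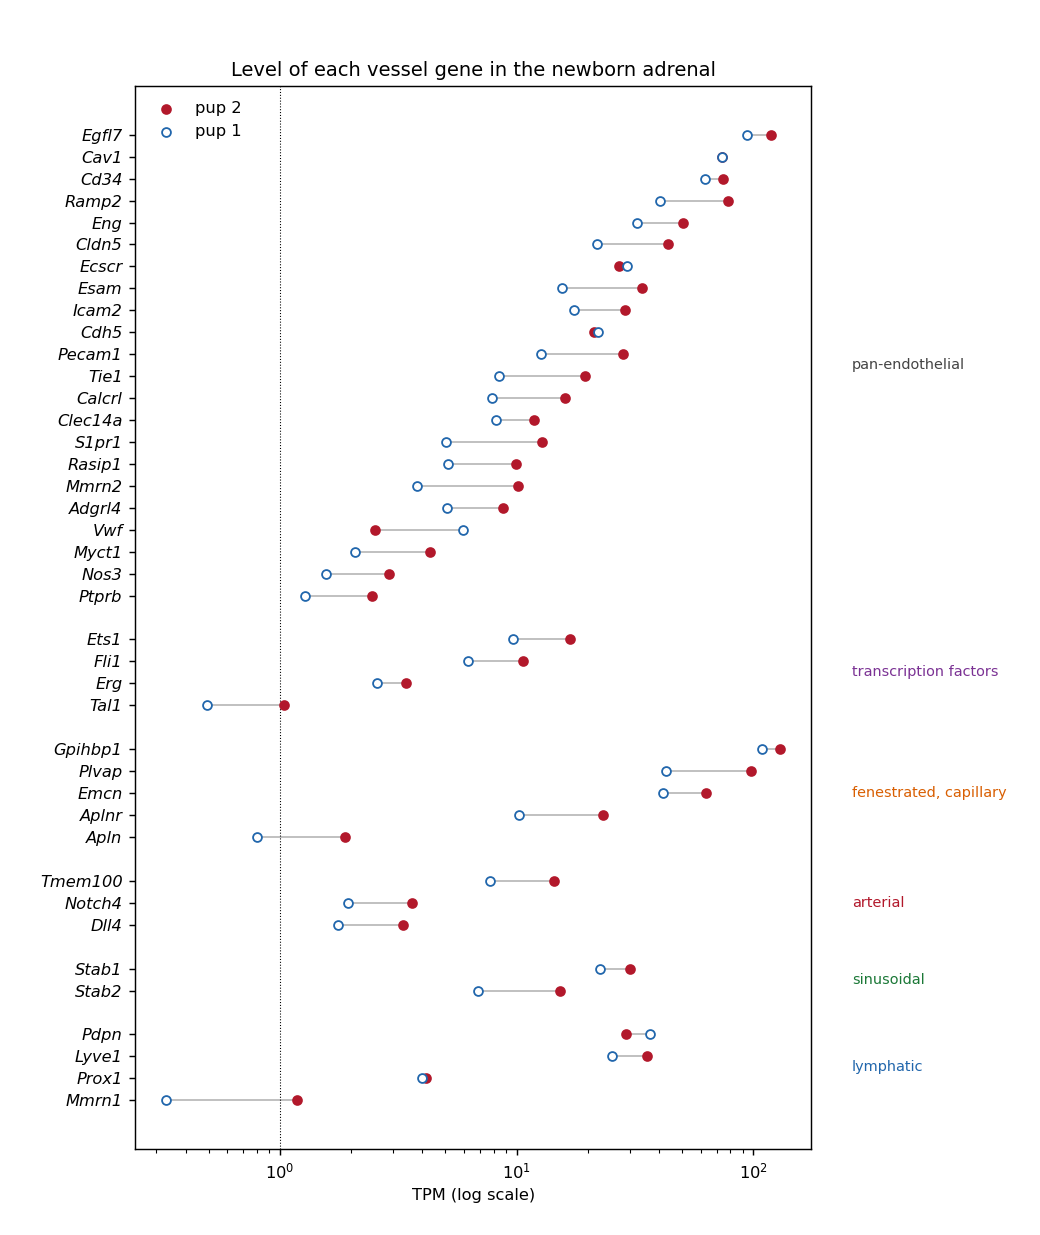
Level of each of the 40 vessel genes in TPM on a log scale, with filled points for pup 2 and open points for pup 1, grouped by class. Gpihbp1 and Egfl7 stand at the top near 100 TPM, and Tal1, Apln and Mmrn1 lie under the dotted line at 1 TPM in pup 1.

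Most vessel genes were higher in pup 2. In scaled counts 31 of 40 (77.5%) were higher there, against 50.2% of the 18670 genes compared, and 9 were higher in pup 1. The median log2 ratio of the 40 genes was 0.49, against 0.002 over all genes compared, whose 5th to 95th percentile ran from -1.39 to 1.09. More than 2-fold higher in pup 2 were Mmrn1, Stab2 and Mmrn2, 3 of 40, against 6.03% of all genes, and 1, Vwf, was more than 2-fold higher in pup 1, against 9.74%. The share past 2-fold in pup 2 is thus near the background. At a fold of 1.5, chosen after the values were seen, 14 of 40 (35%) were higher in pup 2, against 13.9% of all genes, and 2, Vwf and Pdpn, were higher in pup 1, against 20.1%. The counting interval lay above 0 for 30 genes, below 0 for 9 and across 0 for Erg. It was not computed for genes outside the 40, so no share of all genes stands beside these numbers. Because it covers counting error only, it is narrow wherever counts are high.

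These directions are relative to the scaling. In deposited TPM, 36 of 40 genes were higher in pup 2, against 72.2% of all genes, and 13 were more than 2-fold higher, against 13.3%. Scaled to the spike-in RNA, all 40 were higher in pup 2 and the median of all genes moved up by 2.57. The share of all genes higher there was not computed. Their 5th percentile of -1.39 in TMM-scaled counts was smaller in size than that move, so most genes went the same way. The median of the 40 genes minus that of all genes lay between 0.47 and 0.50 under every scaling and measure tried. For scaling by 1 factor per library, spike-ins included, this was all but fixed in advance, because such a factor moves all genes alike. TPM can move genes apart only through effective length, which was close to equal in the pups for most vessel genes, and the difference there was 0.50. FPKM differs from TPM by 1 factor per library, so its 0.50 repeats that value. After removal of a length and GC trend, which moves genes apart, the difference was 0.47. Among the 10 genes of highest mean TPM, 5 were higher in pup 2 and the median log2 ratio was 0.08. Among the other 30, 26 were higher in pup 2 and the median was 0.51. All genes were not split by level in this way, so a trend with level over all genes cannot be told apart from one of the vessel genes.

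**Figure D2:**
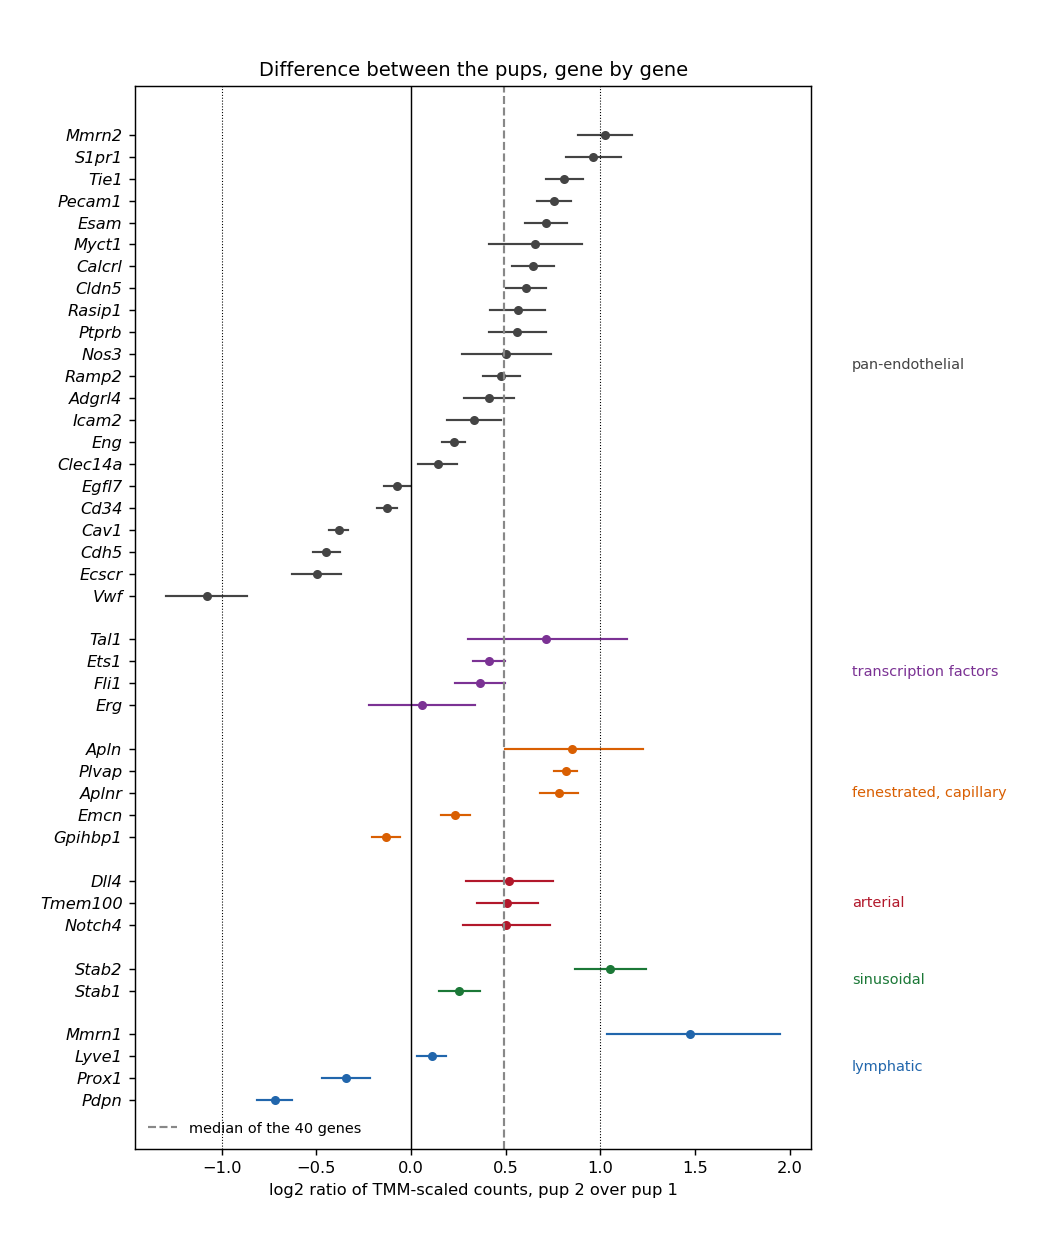
Log2 ratio of scaled counts, pup 2 over pup 1, for each vessel gene, with its exact binomial 95% interval as a bar, which covers counting error only. The points run from -1.08 for Vwf to 1.47 for Mmrn1, and most lie right of 0.

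Of the 22 pan-endothelial genes 16 were higher in pup 2, and their median log2 ratio was 0.49. Junction and adhesion genes form the core of endothelial identity, and here their ratios ran in both directions. Pecam1, an adhesion molecule of the contacts between endothelial cells, measured 28.1 TPM in pup 2, against 12.7 TPM in pup 1, and the log2 ratio of its scaled counts was 0.76 (95% interval 0.67 to 0.85). Cdh5, VE-cadherin of the adherens junction, measured 21.2 TPM in pup 2, against 22.1 TPM in pup 1, and the log2 ratio of its scaled counts was -0.45 (-0.52 to -0.37). These junction markers thus lay on opposite sides of 0 in the same libraries. Cldn5, the endothelial tight junction claudin, measured 43.6 TPM in pup 2, against 21.9 TPM in pup 1. Esam, another junctional adhesion molecule, measured 33.8 TPM in pup 2, against 15.6 TPM in pup 1. Icam2, an adhesion ligand for leukocytes, measured 28.7 TPM in pup 2, against 17.5 TPM in pup 1. The log2 ratios of scaled counts were 0.61 for Cldn5, 0.71 for Esam and 0.33 for Icam2, all toward pup 2.

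Among the pan-endothelial genes are receptors and a phosphatase that set how vessels respond to growth and stability signals. Tie1, a receptor kinase that modulates angiopoietin signalling, measured 19.4 TPM in pup 2, against 8.39 TPM in pup 1, and the log2 ratio of its scaled counts was 0.81 (0.71 to 0.91). S1pr1, the receptor through which sphingosine 1-phosphate stabilises vessels, measured 12.8 TPM in pup 2, against 5.02 TPM in pup 1, and the log2 ratio of its scaled counts was 0.96 (0.82 to 1.11). Eng, a co-receptor for BMP9 and TGF-beta, was more abundant, at 50.4 TPM in pup 2, against 32.2 TPM in pup 1, but nearer to 0 in ratio at 0.22. Ptprb, the phosphatase that dampens Tie2 and VE-cadherin signalling, measured 2.46 TPM in pup 2, against 1.28 TPM in pup 1. Adgrl4, an adhesion receptor of angiogenic endothelium, measured 8.78 TPM in pup 2, against 5.06 TPM in pup 1. The log2 ratio was 0.56 for Ptprb and 0.41 for Adgrl4.

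The receptor for adrenomedullin, a vasodilator peptide first found in adrenal medulla tumours, is made of Calcrl and its partner Ramp2. Ramp2 measured 78.4 TPM in pup 2, against 40.2 TPM in pup 1, and the log2 ratio of its scaled counts was 0.48 (0.38 to 0.58). Calcrl, the receptor subunit that binds the peptide, measured 16.0 TPM in pup 2, against 7.88 TPM in pup 1, and the log2 ratio of its scaled counts was 0.64 (0.53 to 0.76). Ramp2 thus stood several times above Calcrl per length in each pup, over transcripts of all types. Protein-coding transcripts held 45.8% of Ramp2 TPM in pup 2 and 48.8% in pup 1. For Calcrl they held 80.7% in pup 2 and 80.6% in pup 1. Ramp2 overlaps exons of Vps25 on the same strand, and the deposited posterior standard deviation of its count was at most 1.13% of that count.

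Matrix, surface and metabolic genes of the pan-endothelial class held both its most abundant and its least even members. Egfl7 (chr2:26580014-26593120 of mm10, plus strand), a secreted matrix protein of vessels, measured 118 TPM in pup 2, against 94.0 TPM in pup 1, a mean of 106 ± 17.1 TPM (SD, n = 2), and the log2 ratio of its scaled counts was -0.07. Cav1, the coat protein of caveolae, measured 73.8 TPM in pup 2, against 73.5 TPM in pup 1, and the log2 ratio of its scaled counts was -0.38. Cd34, a sialomucin of capillaries and of blood progenitors, measured 74.7 TPM in pup 2, against 62.3 TPM in pup 1, and the log2 ratio of its scaled counts was -0.13. All 3 were at least as high in TPM in pup 2 and below 0 in scaled counts, so their direction depends on the measure.

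Lower levels were found for the remaining surface and matrix genes. Mmrn2, a matrix protein and ligand of Clec14a, measured 10.1 TPM in pup 2, against 3.81 TPM in pup 1, and the log2 ratio of its scaled counts was 1.02 (0.88 to 1.17). Clec14a, its C-type lectin receptor, measured 11.8 TPM in pup 2, against 8.21 TPM in pup 1, and the log2 ratio of its scaled counts was 0.14 (0.04 to 0.24). Ligand and receptor therefore differed in how far the pups lay apart. Ecscr, a small surface protein of endothelial migration, measured 26.9 TPM in pup 2, against 29.1 TPM in pup 1, and the log2 ratio of its scaled counts was -0.50. Rasip1, needed for vessel lumen formation, measured 9.89 TPM in pup 2, against 5.13 TPM in pup 1, and the log2 ratio of its scaled counts was 0.56. Myct1 measured 4.29 TPM in pup 2, against 2.08 TPM in pup 1, and the log2 ratio of its scaled counts was 0.65. Nos3, the endothelial nitric oxide synthase, measured 2.89 TPM in pup 2, against 1.56 TPM in pup 1, and the log2 ratio of its scaled counts was 0.50.

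Vwf, the clotting protein stored in endothelial cells and platelets, stood at the other end. Vwf (chr6:125546774-125686679 of mm10, plus strand) measured 2.51 TPM from 275 counts in pup 2, against 5.95 TPM from 548 counts in pup 1, and the log2 ratio of its scaled counts was -1.08 (-1.29 to -0.87), and it was the sole vessel gene more than 2-fold higher in pup 1. That ratio is of the counts of all Vwf transcripts together. Those over 6000 bases were assigned 214 counts in pup 2, against 331 in pup 1, or 77.9% and 60.4% of the gene's counts. Under spike-in scaling the ratio of Vwf was 1.49, and the other 8 genes higher in pup 1 changed direction as well. Platelet and megakaryocyte markers summed to 399 TPM in pup 2, against 492 TPM in pup 1, with 5 of 9 higher in pup 2 and none at 0 counts. Most of that sum was the platelet chemokine Pf4, at 372 TPM in pup 2, against 467 TPM in pup 1. The part of platelets in the Vwf difference was not tested.

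The 4 transcription factors had ratios above 0, with a median of 0.39. Ets1 measured 16.8 TPM in pup 2, against 9.62 TPM in pup 1, and the log2 ratio of its scaled counts was 0.41. Fli1 measured 10.7 TPM in pup 2, against 6.21 TPM in pup 1, and the log2 ratio of its scaled counts was 0.36. Both are ETS factors that leukocytes also use. Erg, the ETS factor most tied to endothelium, measured 3.40 TPM in pup 2, against 2.58 TPM in pup 1, and its log2 ratio of 0.06 (-0.22 to 0.34) did not differ from 0 beyond counting error. Tal1, a helix-loop-helix factor of blood and vessel precursors, measured 1.04 TPM from 134 counts in pup 2, against 0.49 TPM from 77 counts in pup 1, and the log2 ratio of its scaled counts was 0.71 (0.30 to 1.14). Erythroid markers moved with Tal1, with 7 of 10 higher in pup 2, their median log2 ratio being 0.45 and none at 0 counts, although their summed TPM was 10595 in pup 2 and 14044 in pup 1. Their part in the Tal1 value was not tested.

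Because ETS factors bind around the core GGAAG, the promoter windows of the vessel genes were searched for these 5 letters on either strand, read as GGAAG or CTTCC. RefSeq windows on GRCm38.p6, each 300 bases from 250 before to 50 after a gene start, were held for 22 of the 40 genes, 29 windows in all. The core was found in 23 of 29 windows (79.3%), against 71.4% of 32851 windows of all genes. At least 2 matches were found in 44.8% of the vessel windows and in 37.9% of all windows. The longer form CCGGAAG or CAGGAAG, which contains the core, was found in 34.5% of vessel windows and 20.9% of all windows. A match is a description of letters and not of binding. The windows below, from genes of 3 classes that lay on either side of 0, show how unlike the promoters were, with matches in capitals and each read along its gene's strand. The Tie1 window at chr4:118489800-118490099 held 7 matches, the first Egfl7 window at chr2:26580833-26581132 held 4, the Stab2 window at chr10:87007893-87008192 held 1 and the Pdpn window at chr4:143299515-143299814 held 0.
Tie1: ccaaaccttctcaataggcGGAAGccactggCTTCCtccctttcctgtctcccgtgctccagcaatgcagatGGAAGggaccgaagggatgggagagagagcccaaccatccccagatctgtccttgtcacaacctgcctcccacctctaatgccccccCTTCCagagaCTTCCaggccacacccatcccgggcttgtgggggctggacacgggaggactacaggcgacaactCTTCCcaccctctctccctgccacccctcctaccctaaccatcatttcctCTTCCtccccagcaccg
Egfl7: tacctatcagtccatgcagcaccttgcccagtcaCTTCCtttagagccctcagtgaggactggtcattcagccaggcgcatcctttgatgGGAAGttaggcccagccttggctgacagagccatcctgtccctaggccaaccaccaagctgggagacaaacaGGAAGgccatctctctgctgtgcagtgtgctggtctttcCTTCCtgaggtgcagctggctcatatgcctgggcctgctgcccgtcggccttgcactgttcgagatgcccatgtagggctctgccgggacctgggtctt
Stab2: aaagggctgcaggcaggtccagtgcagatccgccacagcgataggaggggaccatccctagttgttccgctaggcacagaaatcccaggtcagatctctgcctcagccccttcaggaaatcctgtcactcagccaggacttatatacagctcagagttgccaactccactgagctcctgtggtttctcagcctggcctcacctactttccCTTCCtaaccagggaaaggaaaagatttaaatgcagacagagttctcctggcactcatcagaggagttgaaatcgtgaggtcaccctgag
Pdpn: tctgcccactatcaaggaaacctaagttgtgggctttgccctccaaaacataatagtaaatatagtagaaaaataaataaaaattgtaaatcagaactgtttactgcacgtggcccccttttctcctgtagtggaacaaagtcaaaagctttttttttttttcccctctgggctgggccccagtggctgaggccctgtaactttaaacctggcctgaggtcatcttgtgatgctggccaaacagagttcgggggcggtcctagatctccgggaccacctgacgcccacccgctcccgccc

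Egfl7 also hosts miR-126a, the microRNA best known in endothelium, which supports VEGF signalling and vessel integrity. Its mature 3p strand at chr2:26591402-26591423, plus strand, is given here from RefSeq with the seed, bases 2 to 8, in capitals.
mmu-miR-126a-3p: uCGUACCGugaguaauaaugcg
The row of this microRNA gene had a length of 73 bases, an effective length of 0 and 0 counts in both pups, so its level was not measured in these libraries. Egfl7 shares exon positions with Mir126a, Mir126b, Gm20532 and Agpat2. Strand handling remains not given in the sources used here, and 11 of the 40 genes share exon positions with another gene.

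Fenestrated and capillary genes were the most abundant class per gene in deposited TPM. Their median level was 63.0 TPM in pup 2, against 41.7 TPM in pup 1, and although only 5 of the 40, they carried 27.2% of the summed TPM of the vessel genes in pup 2 and 25.3% in pup 1. Gpihbp1 (chr15:75596628-75599481 of mm10, plus strand), which carries lipoprotein lipase to the capillary lumen, was the highest of all 40, at 130 TPM in pup 2, against 108 TPM in pup 1, a mean of 119 ± 15.4 TPM (SD, n = 2). It lay above Egfl7 within each pup, while the ranges of the 2 genes over the pups overlapped. Plvap (chr8:71497765-71511752 of mm10, minus strand), the protein that forms the diaphragms of fenestrae, measured 97.9 TPM in pup 2, against 42.6 TPM in pup 1, a mean of 70.2 ± 39.1 TPM (SD, n = 2), and the log2 ratio of its scaled counts was 0.82 (0.76 to 0.88). Emcn, a sialomucin of capillaries and veins, measured 63.0 TPM in pup 2, against 41.7 TPM in pup 1, and the log2 ratio of its scaled counts was 0.23 (0.16 to 0.31). The diaphragm gene thus lay further toward pup 2 than the capillary sialomucin, and Gpihbp1, at -0.13, lay toward pup 1.

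The apelin pair had like ratios at unlike levels. Aplnr, the apelin receptor of veins and sprouting capillaries, measured 23.2 TPM in pup 2, against 10.2 TPM in pup 1, and the log2 ratio of its scaled counts was 0.78 (0.68 to 0.88). Apln, its peptide ligand and a tip cell gene, measured 1.88 TPM from 188 counts in pup 2, against 0.80 TPM from 98 counts in pup 1, and the log2 ratio of its scaled counts was 0.85 (0.50 to 1.22). The 5 genes together had a median log2 ratio of 0.78. A separate list of 10 fenestrated, capillary and tip cell genes that are not among the 40 had 4 higher in pup 2 and a median of -0.08, so the lean of these 5 was not seen in that list.

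The 3 arterial genes had nearly the same ratio at unlike levels. Dll4, the Notch ligand of arteries and tip cells, measured 3.30 TPM in pup 2, against 1.76 TPM in pup 1. Notch4, an endothelial Notch receptor, measured 3.62 TPM in pup 2, against 1.94 TPM in pup 1. Tmem100, a target of BMP9 signalling in arterial endothelium, measured 14.3 TPM in pup 2, against 7.71 TPM in pup 1. The log2 ratio was 0.52 for Dll4, 0.50 for Notch4 and 0.51 for Tmem100, each with a counting interval above 0. Of 10 other arterial genes 5 were higher in pup 2, and their median was -0.13.

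Stab1 and Stab2 are scavenger receptors of sinusoidal endothelium, Stab1 being shared with macrophages. Stab1 measured 30.1 TPM in pup 2, against 22.5 TPM in pup 1, and the log2 ratio of its scaled counts was 0.26 (0.15 to 0.36). Stab2 (chr10:86841198-87008025 of mm10, minus strand) measured 15.3 TPM from 751 counts in pup 2, against 6.88 TPM from 341 counts in pup 1, and the log2 ratio of its scaled counts was 1.05 (0.87 to 1.24). Both were higher in pup 2, Stab2 by more than 2-fold. The 12 macrophage markers summed to 391 TPM in pup 2, against 409 TPM in pup 1, with 2 of 12 higher in pup 2, their median log2 ratio being -0.37 and none at 0 counts. Markers of liver sinusoidal endothelium that are not among the 40 had 3 of 8 higher in pup 2 and a median of -0.25, and their defining lectin Clec4g had 19 counts in pup 2 and 12 in pup 1.

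The lymphatic genes were the least even class. Lyve1, a hyaluronan receptor of lymphatic capillaries and also of resident macrophages, measured 35.7 TPM in pup 2, against 25.3 TPM in pup 1, and the log2 ratio of its scaled counts was 0.11 (0.03 to 0.19). Prox1, the master regulator of lymphatic fate that hepatocytes also express, measured 4.15 TPM in pup 2, against 3.98 TPM in pup 1, and the log2 ratio of its scaled counts was -0.34 (-0.47 to -0.21). Pdpn, a surface mucin of lymphatic vessels and mesothelium, measured 29.0 TPM in pup 2, against 36.5 TPM in pup 1, and the log2 ratio of its scaled counts was -0.72 (-0.81 to -0.63). Mmrn1 (chr6:60924976-60989378 of mm10, plus strand), a secreted protein of lymphatic endothelium and platelets, measured 1.18 TPM from 163 counts in pup 2, against 0.33 TPM from 55 counts in pup 1, and the log2 ratio of its scaled counts was 1.47 (1.03 to 1.95). The 4 genes therefore spanned almost the whole range of the 40, with 2 on each side of 0 and a median of -0.12.

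Markers of cells that share these lymphatic genes are given beside them. Hepatocyte markers summed to 2266 TPM in pup 2, against 2940 TPM in pup 1, with 0 of 8 higher in pup 2, their median log2 ratio being -0.75 and none at 0 counts. Mesothelium markers summed to 145 TPM in pup 2, against 121 TPM in pup 1, with 3 of 7 higher in pup 2, a median of -0.08 and none at 0 counts. Of 8 other lymphatic genes 5 were higher in pup 2, and their median was 0.33. The part of these cells in the values of Prox1 and Pdpn was not tested.

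Transcript length bears on the levels of a few genes. Of the 40, 12 had 1 annotated transcript. Of the other 28, 26 had the same most abundant transcript by TPM in both pups, the exceptions being Erg and Stab1. By counts, Erg and Stab1 had the same top transcript in both pups, and that of Vwf changed. An 8817-base Vwf transcript took 214 counts in pup 2, against 0.84 in pup 1, and an 8834-base one 0.06 in pup 2, against 330 in pup 1. The most abundant transcript by TPM was protein-coding in both pups for 35 genes. When all counts of a gene were instead divided by the effective length of its longest coding transcript, a measure added after seeing the data, 27 genes stayed within 1.1 times of their deposited TPM in both pups. For 6 the deposited TPM was over 1.5 times higher in both pups, namely Stab2, Stab1, Vwf, Notch4, Gpihbp1 and Emcn. The ratios between pups, which rest on counts, do not use this length.

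The sinusoidal genes moved furthest. For Stab2, transcripts under 1000 bases held 26.8% of counts but 82.2% of TPM in pup 2, and 34.2% of counts but 84.2% of TPM in pup 1. Its 8228-base coding transcript held 59.8% of counts in pup 2, against 50.7% in pup 1. Per longest coding transcript, Stab2 stood at 2.82 TPM in pup 2, against 1.04 TPM in pup 1, and its rank by mean level among the 40 was 34, against 22 by deposited TPM. Stab1 stood at 6.21 TPM in pup 2, against 3.99 TPM in pup 1 on that measure, where it ranked 28, against 13 by deposited TPM. For Vwf, a 456-base processed transcript held 4.99% of counts and 46.7% of TPM in pup 2, and 8.72% of counts and 55.8% of TPM in pup 1. Gpihbp1 stood at 59.2 TPM in pup 2, against 49.6 TPM in pup 1, and ranked 5 rather than 1, with Egfl7 at rank 1 and Plvap at rank 2.

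**Figure D3:**
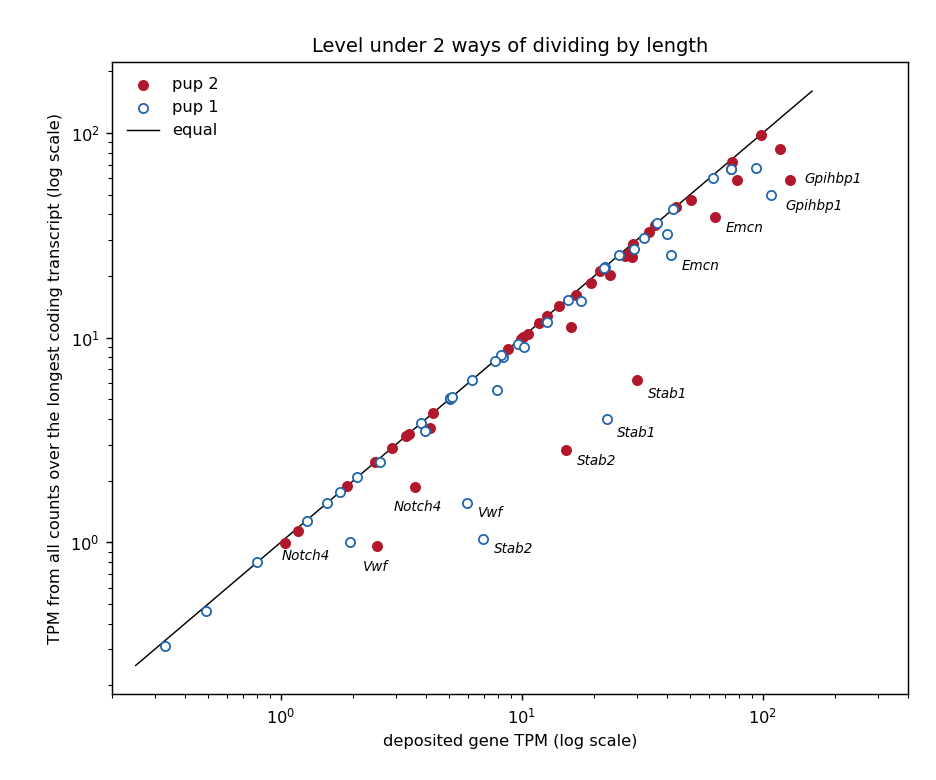
Deposited gene TPM (x axis) against TPM from all counts over the effective length of the longest coding transcript (y axis), both on log scales, for the 40 vessel genes, with filled points for pup 2 and open points for pup 1. Most points lie on the line of equality, and the 6 labelled genes lie below it, Stab2 furthest.

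Other cell types and vessel genes outside the 40 place these values. In a list of 20 further pan-endothelial genes, 20 of 20 reached 1 TPM in both pups, 18 were higher in pup 2 and the median log2 ratio was 0.72, above the 0.49 of the 40. The VEGF receptor Kdr, a member of that list named after its values were seen, measured 20.8 TPM in pup 2, against 7.35 TPM in pup 1. Of 6 blood-brain barrier endothelium markers, 4 were under 1 TPM in both pups. The other 2, also used outside the brain, were the glucose transporter Slc2a1, at 13.3 TPM in pup 2, against 7.71 TPM in pup 1, and the Wnt effector Lef1, at 5.35 TPM in pup 2, against 2.87 TPM in pup 1. Venous genes had 1 of 5 higher in pup 2 and a median of -0.47, and pericyte and smooth muscle genes 3 of 10, with a median of -0.58. The medians of venous and vessel wall genes thus lay below 0, and those of both pan-endothelial lists above 0. Steroidogenic genes had 8 of 8 higher in pup 2 and a median of 1.11, and chromaffin genes 6 of 8, with a median of 0.44.

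Markers of tissue from outside the gland also differed between the libraries. Adipocyte markers had 6 of 7 higher in pup 2 and a median log2 ratio of 0.86. Their 3 highest genes by mean TPM were uneven, with log2 ratios of -0.06 for Fabp4, 0.01 for Lpl and 1.22 for Lipe. The fat cell hormone Adipoq, which lay furthest apart of that list, measured 14.9 TPM in pup 2, against 0.10 TPM in pup 1. Skeletal muscle markers had 6 of 6 higher in pup 2 and summed to 239 TPM in pup 2, against 58.7 TPM in pup 1. Leukocyte and blood progenitor markers had 6 of 9 higher in pup 2 and a median of 0.22, and podocyte and kidney epithelium markers 3 of 5. The kidney regulator Pax2 measured 3.46 TPM from 376 counts in pup 2, against 0.22 TPM from 34 counts in pup 1. Cdh16, the cadherin of kidney epithelium, measured 3.75 TPM from 357 counts in pup 2, against 0.67 TPM from 78 counts in pup 1. Hepatocyte markers, given above, went the other way, with 0 of 8 higher in pup 2 and a median of -0.75. Vessels of fat, muscle and kidney carry pan-endothelial genes too, and the part of tissue from outside the gland in the values of the 40 genes was not tested.

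**Figure D4:**
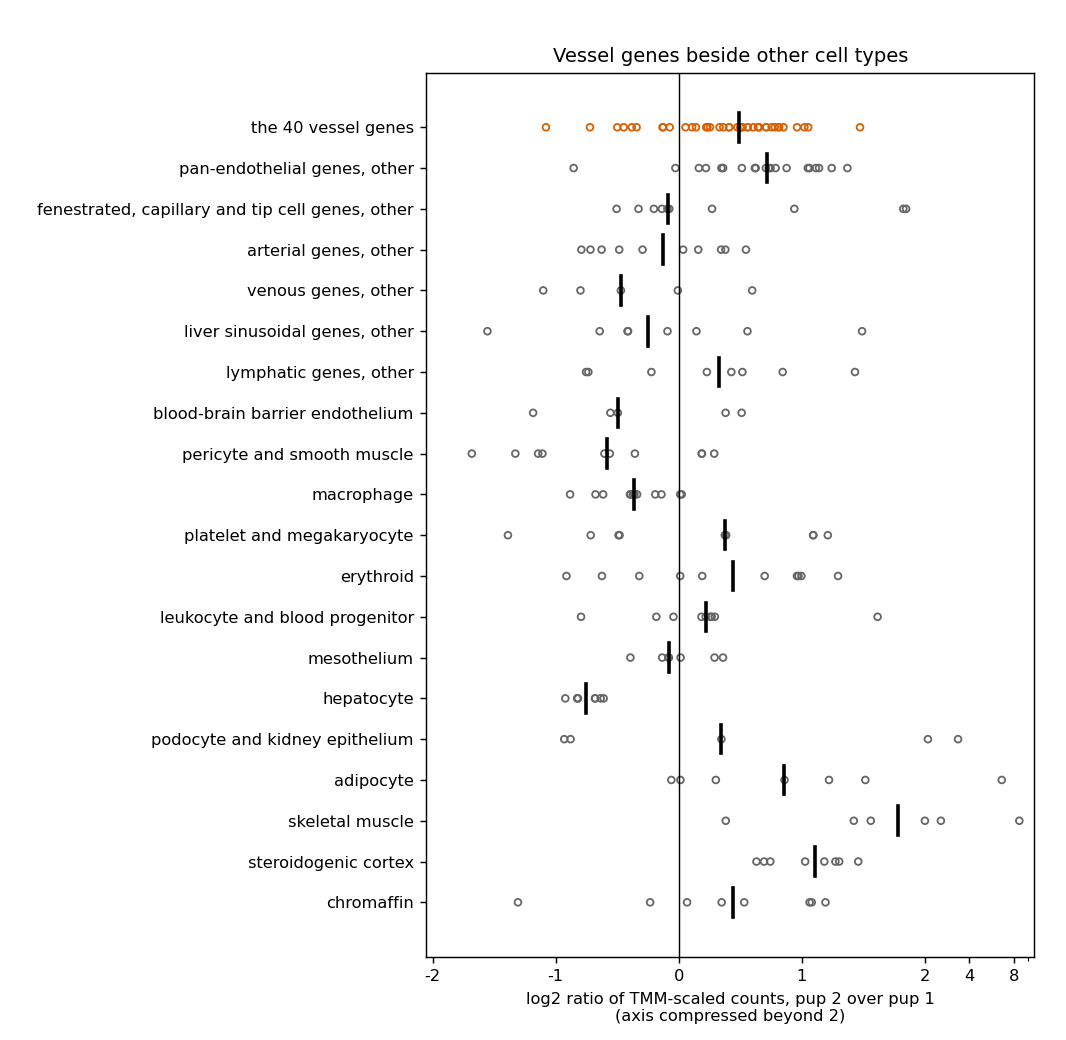
Log2 ratio of scaled counts, pup 2 over pup 1, for the 40 vessel genes (top) and for 19 lists of other vessel and cell type markers, with a point per gene and a bar at the median; the axis is compressed beyond 2. The vessel genes and the further pan-endothelial genes lie mostly right of 0, hepatocyte genes left of 0, and the far right muscle point is Myh1, with 0 counts in pup 1, whose position depends on the pseudocount.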

How the data were processed

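The 40 genes and the marker lists were chosen with earlier results of these data known. The authors deposited 1 table by gene and another by transcript per library. Per the file headers both hold expected counts, TPM and FPKM. The isoform percent deposited in the transcript tables divides the TPM of a gene among its transcripts. The deposited posterior standard deviations and TPM interval bounds were read as scores. Per the text file deposited with each library, the build is mm10 and the annotation GENCODE M4. Aligner, quantifier and strand handling remain not given in the sources used here. Per the labels, RNA was extracted with Ambion mirVana, spike-ins were added, and among the protocols is a manual of a SMARTer ultra low kit.

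Besides 43346 Ensembl genes, the 69691 rows of a gene table comprise 97 spike-ins and 26248 rows named by a number. Spike-ins took 0.00250% of counts in pup 2, against 0.0138% in pup 1, and numbered rows 9.59e-05% in pup 2, against 2.65e-05% in pup 1. Neither kind entered library sizes. GENCODE M21, also on mm10, gave symbols, coordinates and GC content by Ensembl identifier. Counts, not whole for 15.9% of Ensembl genes in pup 2 and 15.3% in pup 1, were rounded, raised by a pseudocount of 0.5 and scaled by TMM in edgeR 4.0.16 (R 4.3.3). The pups were compared at mean counts of 10 or more. No dispersion was fitted and no test was run, because each pup is 1 library. The rule for named genes takes all 40, and other genes where a result turns on them. Scripts in python 3.11.15 with scipy 1.17.1 and pandas 2.3.3 were tested on simulated data. Alternatives were DESeq2 1.42.0 size factors, spike-in or total count scaling, posterior mean counts, TPM, FPKM, other filters and pseudocounts, and subtraction of degree 3 polynomials in length and GC content. Promoter and microRNA sequences are from RefSeq (GRCm38.p6). The promoters of 18 genes were not searched, for want of an entry or, on chromosome 18, because windows there were left out for the vessel genes.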

Additional observations from a re-analysis of the deposited data

How the results depend on the processing

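The median log2 ratio of the 40 genes, 0.49, was 0.51 with DESeq2 size factors, 0.60 with total counts, 0.61 in FPKM, 0.89 in TPM, 0.45 after removal of a length and GC trend and 3.06 with spike-in scaling. The number higher in pup 2, 31, was 30 after trend removal, 32 with total counts or FPKM, 36 in TPM and 40 with spike-ins. The number over 2-fold higher in pup 2, 3, was 2 after trend removal, 4 with total counts, 13 in TPM and 40 with spike-ins. The number over 1.5-fold, 14, was 15 after trend removal, 21 with total counts or FPKM, 27 in TPM and 40 with spike-ins. The 1.5-fold count was chosen after seeing the data. Shares of all genes were computed for TMM-scaled counts and, except at 1.5-fold, for TPM. The other numbers have no such share beside them and are no result about the vessel genes. Vwf turned to 1.49 with spike-in scaling. The cause of these shifts was not tested, beyond the move of the median of all genes, 2.57 with spike-ins and 0.39 in TPM. Posterior mean counts, a pseudocount of 5, no filter and a mean count of at least 100 changed the direction of 0 genes. Summed TPM, whose mean over the pups was 984, was 805 to 1163 with either pup left out, and 1407 when rescaled over nuclear protein-coding genes. No paired analysis was possible because there is 1 group. With 2 libraries the SD rests on 1 difference, and depth limits the ratios of Mmrn1, Tal1 and Apln most, through their counts.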
